A study of Mus musculus with 3 samples.

Results

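This account covers 10 genes that build or regulate the actin cytoskeleton in mouse cortical neurons: the actins Actb and Actg1, the cofilin family genes Cfl1, Cfl2 and Dstn, the profilins Pfn1 and Pfn2, the β-thymosins Tmsb4x and Tmsb10, and the drebrin gene Dbn1. They were chosen by name, not by their values, from 18118 protein-coding genes with a value. Earlier results of these data were known when the choice was made. The study, by its title, concerned how DNA supercoiling is passed along and which topoisomerases relieve it in the neuronal genome. Total RNA was sequenced from 3 libraries of wild-type, control-treated cortical neurons, with no further treatment, age or culture detail in the labels. These libraries form 1 group, named replicates 1 to 3 after their titles, so genes were compared inside each library and no conditions were compared. Nothing in the labels says that the 3 libraries came from separate cultures, so the spread between them may be technical.

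Actin monomers join into filaments that give axonal growth cones and dendritic spines their shape. Profilins bind monomers and feed them to growing filament ends, whereas β-thymosins hold monomers in reserve. Cofilins and destrin sever and disassemble filaments, and drebrin binds along the filaments of dendritic spines and growth cones. The 2 non-muscle actins, β and γ, differ in only a few residues near the start of the protein, and both are widely made.

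Levels are in TPM, a relative abundance that is already divided by transcript length, so genes can be compared with each other. The value of a gene is that of 1 transcript, the coding one to which most reads were assigned. The deposited table counts a read in every transcript that it overlaps, so values were not added over transcripts. The coding transcripts used held 32500344, 28685035 and 28202268 reads in replicates 1, 2 and 3. The pan-neuronal marker list had 8 of 8 genes at a mean of at least 1 TPM, led by Stmn2 at 687 ± 55.6 TPM (SD, n = 3), with Elavl3 lowest at 33.6 ± 2.26 TPM. The astrocyte list also had 8 of 8, led by Slc1a3 at 184 ± 19.1 TPM, with S100b lowest at 3.16 ± 0.78 TPM. Of the oligodendrocyte lineage list 6 of 8 reached 1 TPM, from Olig1 at 34.4 ± 2.91 down to Mobp at 0.018 ± 0.020 TPM. Of the smooth muscle, pericyte and fibroblast list 4 of 8 did, from Acta2 at 3.07 ± 0.85 down to Col1a2 at 0.073 ± 0.058 TPM. Of the dividing-cell list 5 of 6 did, from Pcna at 8.36 ± 1.20 down to Ccnb1 at 0.61 ± 0.17 TPM. The microglia list had 1 of 8, Aif1 at 1.03 ± 0.43 TPM, and its Tmem119 was at 0 in the 3 libraries, which allows up to 0.031 TPM. None of 6 endothelial markers reached 1 TPM; Kdr was highest at 0.37 ± 0.18 TPM and Cldn5 was at 0, which allows up to 0.049 TPM. Astrocyte markers were thus measured beside neuronal ones, and in bulk libraries fewer cells of a type cannot be told apart from less RNA per cell.

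All 10 genes had a mean of at least 1 TPM, against 61.8% of the 18118 coding genes. Their median was 124 TPM, beside 2.91 TPM over all coding genes, and together they made up 0.25% of all TPM in the table. That total holds every transcript of every gene, with shared reads counted repeatedly, so 0.25% is not their share of the reads. The levels spanned from Tmsb4x, which ranked 6 of the 18118 genes, to Actg1, which ranked 9259. Of these genes 5 stood above 100 TPM, 4 lay between 43.9 and 62.6 TPM, and Actg1 stood apart at the bottom by TPM as deposited.

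**Figure D1:**
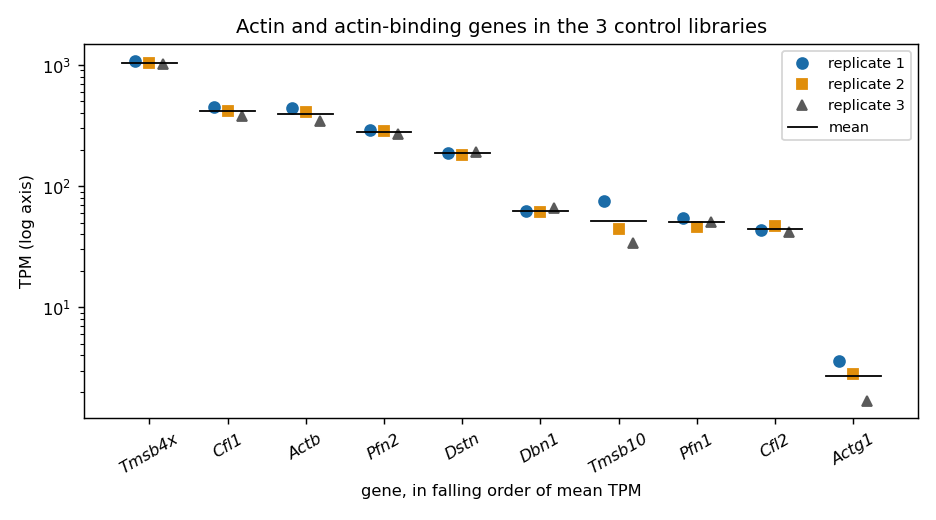
TPM of each of the 10 genes (log axis) in the 3 control libraries, in falling order of mean; horizontal lines are means and symbols are replicates. Tmsb4x lies near 1044 TPM and Actg1 near 2.69 TPM, and the symbols of Tmsb10 and Actg1 are the most widely spaced.

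The actins came first in the comparison. Actb, the β-actin gene (chromosome 5, minus strand, 142903115 to 142906754 on GRCm38), stood at 436, 409 and 343 TPM in replicates 1, 2 and 3. Replicate 3 was lowest, and the mean was 396 ± 48.1 TPM (SD, n = 3), rank 37. Actg1, the γ-actin gene (chromosome 11, minus strand, 120345690 to 120348542), stood at 3.58, 2.82 and 1.67 TPM, on 358, 238 and 149 reads. The 2 genes did not overlap in any library: Actb was higher in each, by 157 ± 42.9-fold in TPM. On the log2(TPM + 0.1) scale, where differences of low genes are understated, Actg1 minus Actb was -7.21 ± 0.36 (two-sided exact sign-flip permutation p = 0.25, n = 3). That is the smallest p that 3 libraries allow, and over the 15 differences tested here the smallest Benjamini-Hochberg adjusted p was 0.31, so no difference below could reach 0.05. Each is read against its SD over libraries instead.

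The level of Actg1 rests on very little sequence of its own. Over their 1125 coding bases the 2 actin genes are 88.6% identical. The near-identical sequence of Actg1 lies elsewhere: 6 other places in the genome match at least 80% of its coding bases at 90% identity or more in 1 uninterrupted alignment. The closest is the processed pseudogene Gm12715 (chromosome 4, plus strand, 103563402 to 103564529), at 99.6% identity and 4 differing bases, at coding positions 858, 861, 864 and 1002 counted from the A of the start codon. The stretch with 3 of those 4 differences is shown, since it is where a read of the coding sequence could tell the gene from this copy. Capitals mark the differing bases. The Actg1 stretch is coding bases 831 to 890 (chr11:120346731-120346790, minus strand) and the copy is chr4:103564232-103564291, plus strand, both on GRCm38.
Actg1: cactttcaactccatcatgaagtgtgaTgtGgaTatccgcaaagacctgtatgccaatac
Gm12715: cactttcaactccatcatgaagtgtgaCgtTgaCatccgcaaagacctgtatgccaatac

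Uniqueness was measured with every run of 50 bases (50-mer) of a transcript, called unique where it occurs nowhere else in the genome. Of the 1903 50-mers of the Actg1 transcript 63 were unique, 3.31%, and of its 100-mers 7.07% were. Of all coding genes only 12 had a lower share, in a search that took 50-mers every 10 bases. Actb had 83.8% unique 50-mers and 98.1% unique 100-mers. Divided by the share of unique sequence, the mean of Actg1 would be 81.2 TPM with 50-mers and 38.0 TPM with 100-mers. The log2 difference from Actb would then be -2.60 or -3.46, and with the transcript of highest TPM in place of the one with most reads it was -5.24. Read length is not given in the sources used here, so neither 50-mers nor 100-mers are tied to the length of these reads. How reads that match several places were counted is not given either, so the part of shared sequence in the low value of Actg1 was not tested.

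**Figure D2:**
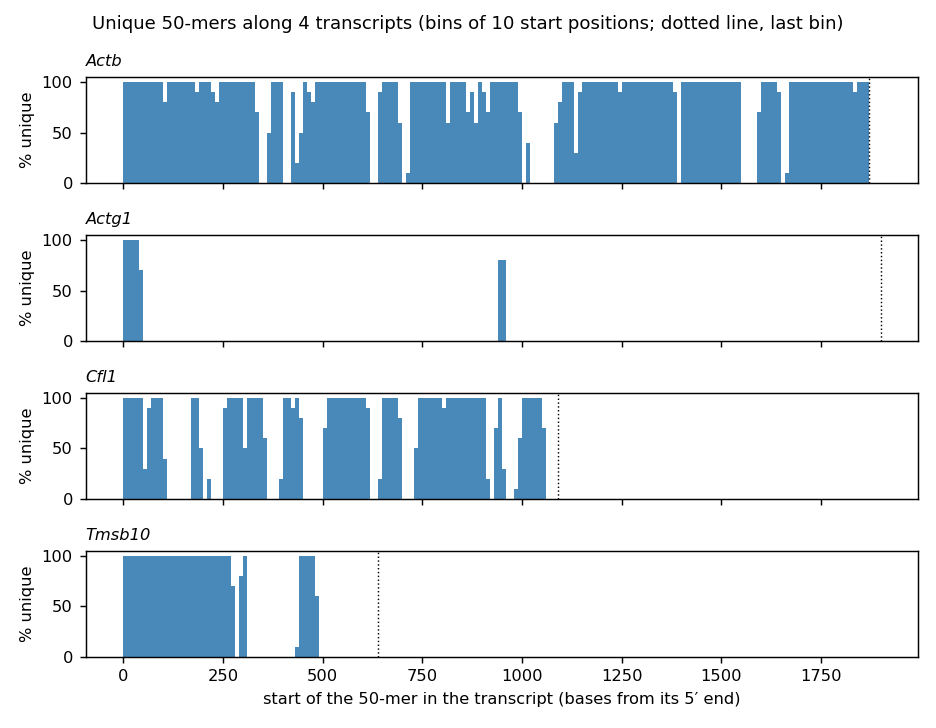
Share of unique 50-mers (%) along the transcripts of Actb, Actg1, Cfl1 and Tmsb10, in bins of 10 start positions from the 5′ end; a dotted line marks the last bin of each transcript. The blue area nearly fills the Actb panel, while Actg1 has unique 50-mers in 2 short stretches only.

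Each annotated copy with a row had a lower TPM than the gene it matches. The share of unique sequence was not measured for the pseudogenes. Close copies share the counting limit described for Actg1, so a low value does not show that a copy is silent. By the same thresholds 9 annotated pseudogenes match Actg1, since transcripts that join interrupted pieces count here too. They include 5 with a row in the table, and these summed to 0.60 TPM, most of it from Gm8399 at 0.45 TPM. The highest copy of any of the 10 genes was Gm15725, a transcribed pseudogene that matches Actb at 91.8% identity, at 8.43 TPM. It lies on chromosome 16 (37882542 to 37883631) inside the transcript of the coding gene Lrrc58, which was listed at 9.80 TPM, so their reads cannot be told apart. The next was Gm3788, a copy of Tmsb10, at 2.94 TPM.

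The reads of Actg1 were not spread evenly. The short transcript Actg1-203, with 326 exonic bases of the 1952 in Actg1-202, held 88.0%, 88.2% and 77.2% of the reads of Actg1-202 in replicates 1, 2 and 3. Of the 63 unique 50-mers, 16 overlap those 326 bases. The stretch printed for comparison with Gm12715 lies in the middle exon of Actg1-203. Reads of Actg1-202 that did not touch Actg1-203 numbered 43, 28 and 34, whereas those that did numbered 315, 210 and 115. The low value of replicate 3 was thus seen in the reads that touch Actg1-203, and outside them replicate 3 was between the others.

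The cofilin family followed the same order in each library. Cfl1, the non-muscle cofilin (chromosome 19, plus strand, 5490455 to 5495201), stood at 449, 416 and 375 TPM, with a mean of 413 ± 37.2 TPM and rank 33. Dstn, which encodes destrin or actin depolymerizing factor (chromosome 2, plus strand, 143915320 to 143943324), stood at 187, 180 and 189 TPM, with a mean of 186 ± 4.66 TPM and rank 107. Cfl2, named the muscle cofilin (chromosome 12, minus strand, 54858809 to 54862877), stood at 43.2, 46.8 and 41.6 TPM, with a mean of 43.9 ± 2.66 TPM. The values of the 3 genes do not overlap. Cfl1 exceeded Dstn by 2.23 ± 0.22-fold and Cfl2 by 9.44 ± 0.83-fold. On the log2 scale Dstn minus Cfl1 was -1.15 ± 0.15 and Cfl2 minus Cfl1 was -3.23 ± 0.12, both many times their SD.

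Aligned coding identity was 73.2% for Dstn with Cfl1 and 72.6% for Cfl2 with Cfl1, and Cfl1 and Dstn also share sequence with other places in the genome. Cfl1 had 63.5% unique 50-mers, which rose to 88.2% for 75-mers and 98.2% for 100-mers, with 2 genomic copies at up to 98.2% identity. Dstn had 77.9% unique 50-mers and 80.6% unique 100-mers, with 1 genomic copy at 90.3% identity, whereas Cfl2 had 99.7% unique 50-mers and no such copy. Divided by unique 50-mers, Cfl2 minus Cfl1 was -3.88, a wider gap in the same direction, and with 100-mers it was -3.26. Dstn minus Cfl1 was -1.45 with 50-mers and a narrower -0.87 with 100-mers.

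Of the profilins, the neuronal paralog Pfn2 was the higher. Pfn2 (chromosome 3, minus strand, 57841895 to 57848079) stood at 289, 282 and 267 TPM, with a mean of 279 ± 11.2 TPM and rank 58. Pfn1, the ubiquitous profilin (chromosome 11, minus strand, 70651850 to 70654644), stood at 54.0, 46.2 and 50.8 TPM, with a mean of 50.3 ± 3.90 TPM and rank 863. Pfn2 was above Pfn1 in each library, by 5.57 ± 0.47-fold, or 2.47 ± 0.12 on the log2 scale. This is the pair least touched by shared sequence: both genes had 99.9% unique 50-mers, no genomic copy, and a coding identity of 62.5%. The log2 difference lay between 2.40 and 2.55 in every alternative tried. The intron that the transcript Pfn1-203 keeps (1389 bases) held 65, 54 and 82 reads that touch no exon of Pfn1-202, a density of 2.89 ± 0.43% of that of Pfn1-202.

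By TPM as deposited, the β-thymosins showed the widest gap between paralogs after the actins. Tmsb4x, which encodes thymosin β4 (chromosome X, minus strand, 167207093 to 167209315), stood at 1075, 1042 and 1014 TPM in the 3 libraries, on 38458, 31442 and 32333 reads. Tmsb10, which encodes thymosin β10 (chromosome 6, minus strand, 72957347 to 72958748), stood at 75.8, 44.6 and 34.0 TPM, with a mean of 51.5 ± 21.7 TPM. Tmsb4x was above Tmsb10 in each library, by 22.5 ± 7.86-fold, and the log2 difference Tmsb10 minus Tmsb4x was -4.42 ± 0.55. Tmsb4x varied by 2.92% between libraries (coefficient of variation, CV) and Tmsb10 by 42.2%. Both genes encode peptides of about the same length, and their last 132 coding bases before the stop codon differ at 40 positions, in capitals below. The sequences are shown because the 2 peptides are close relatives whose coding bases nevertheless differ all along the stretch. They are spliced from exons within chrX:167207504-167208036 and chr6:72957621-72958012, both on the minus strand.
Tmsb4x: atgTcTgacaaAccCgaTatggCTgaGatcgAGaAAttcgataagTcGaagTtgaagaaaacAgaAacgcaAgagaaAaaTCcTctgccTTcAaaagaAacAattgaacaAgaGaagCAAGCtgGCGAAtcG
Tmsb10: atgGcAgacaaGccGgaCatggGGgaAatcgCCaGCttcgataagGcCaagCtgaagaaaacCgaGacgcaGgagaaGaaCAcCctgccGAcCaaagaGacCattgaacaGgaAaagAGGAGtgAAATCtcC

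The 2 genes differ in the copies that the genome holds. Tmsb4x had 99.8% unique 50-mers and no copy, whereas Tmsb10 had 53.4% unique 50-mers, 68.9% unique 100-mers and 8 copies, the closest at 99.2% identity. In the plot of unique 50-mers along the transcripts, most of the shared part of Tmsb10 lies beyond start position 280. Divided by unique 50-mers, Tmsb10 minus Tmsb4x was -3.52, and summed over transcripts it was -3.72, both in the same direction. With that division the gaps ranked otherwise, since Cfl2 minus Cfl1 was then -3.88 and Actg1 minus Actb -2.60. Tmsb4x, a monomer-holding gene, was also above the actin gene Actb in each library, by 2.66 ± 0.26-fold or 1.41 ± 0.14 on the log2 scale. That order turned to -0.17 when all transcripts of a gene were summed, a sum that counts shared reads once for each of 8 Actb transcripts and each of 3 Tmsb4x transcripts.

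Dbn1, the drebrin gene (chromosome 13, minus strand, 55473429 to 55488111), stood at 62.0, 60.5 and 65.3 TPM, with a mean of 62.6 ± 2.43 TPM and rank 640. Its 98.8% unique 50-mers leave little shared sequence. Drebrin has a neuronal adult form, drebrin A, with an extra exon that the embryonic form, drebrin E, lacks. In the annotation that exon of 138 bases is exon 11 of the longest transcript, at chr13:55476636-55476773 on the minus strand, and the otherwise equal Dbn1-203 skips it. It is shown because, as reads are counted here, only those that touch it alone separate the 2 transcripts. The exon is all in lower case because no part is marked.
Dbn1 exon 11: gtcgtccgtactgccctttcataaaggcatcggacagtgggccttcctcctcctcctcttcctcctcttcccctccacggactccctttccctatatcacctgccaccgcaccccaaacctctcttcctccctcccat
Reads that touched this exon and no other Dbn1 exon numbered 212, 140 and 143 in replicates 1, 2 and 3. Their density was 29.97, 23.5 and 22.7 TPM, or 47.2%, 37.7% and 33.7% of the density over Dbn1-203. Replicate 1 was the highest by either measure, and the mean share was 39.5 ± 6.90% (SD, n = 3). Reads spliced from this exon into its neighbours count in both transcripts, and unspliced reads over it count in its favour, so the figure shows that the exon was present in the RNA and is not the share of drebrin A.

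Set in order of mean TPM, the 10 genes ran Tmsb4x, Cfl1, Actb, Pfn2, Dstn, Dbn1, Tmsb10, Pfn1, Cfl2 and Actg1. Of the 9 neighbouring pairs 6 kept the same order in the 3 libraries. Among them Cfl1 stood above Actb by only 0.07 ± 0.06 on the log2 scale, a step hardly larger than its SD. That step turned to -0.26 with the transcript of highest TPM and to -2.91 with sums over transcripts. Divided by unique 50-mers it was wider, at 0.47. The steps from Dbn1 to Tmsb10 (0.36 ± 0.62), from Tmsb10 to Pfn1 (-0.05 ± 0.53) and from Pfn1 to Cfl2 (0.20 ± 0.19) changed sign between libraries. The place of Tmsb10 among these 4 genes and the order of Pfn1 and Cfl2 were therefore not settled, whereas Dbn1 lay above Pfn1 and Cfl2 in each library. The last place of Actg1 holds for TPM as deposited and is not settled either. Divided by unique 50-mers its mean would be 81.2 TPM, below Tmsb10 at 96.5 TPM. It would then lie above Dbn1 at 63.4, Pfn1 at 50.4 and Cfl2 at 44.0 TPM. Divided by unique 100-mers, Actg1 would stay lowest at 38.0 TPM.

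The 10 genes differed in how far the libraries agreed. The CV over the 3 libraries was 2.51% for Dstn, 2.92% for Tmsb4x, 3.88% for Dbn1 and 3.99% for Pfn2, against a median of 7.88% over coding genes of at least 1 TPM. Actb, at 12.2%, lay above that median. Tmsb10 at 42.2% and Actg1 at 35.7% were more variable than 99.7% and 99.4% of those genes, and counting error alone would give 2.62% and 6.76%. Replicate 1 held the highest value for 7 of the 10 genes, against 28.2% of the 11196 genes of at least 1 TPM. Cfl2 was the 1 gene highest in replicate 2, against 40.4% of those genes, and Dstn and Dbn1 were the 2 highest in replicate 3, against 31.4%. Replicate 3 held the lowest value for 7 of the 10, against 40.9% of those genes. Dstn, Dbn1 and Pfn1 were the 3 lowest in replicate 2, against 25.4%, and none was lowest in replicate 1, against 33.6%.

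In Tmsb10 and Actg1 replicate 3 was below 0.5 times replicate 1, with ratios of 0.45 and 0.47. That fold was chosen after the values were seen. Only 0.107% of the 11196 genes, 12 in all, passed it, and these 2 are among them. Of the 12 genes 6 had under 60% unique 50-mers, against 3.55% of the 11196. Over 69 genes with under 20% unique 50-mers the median log2 ratio of replicate 3 to replicate 1 was -0.16, and over 328 genes with 20 to 60% it was -0.02. Over 10072 genes with at least 90% unique 50-mers it was -0.01. Cell type markers moved between the libraries too. The summed pan-neuronal list was 2166, 2170 and 1940 TPM. Replicate 3 was lowest for 8 of its 8 genes, against 40.9% of the 11196 genes. The summed astrocyte list was 420, 447 and 515 TPM and the summed oligodendrocyte lineage list 66.2, 49.7 and 83.0 TPM, both highest in replicate 3. The summed microglia list was 2.72, 2.65 and 1.35 TPM, lowest in replicate 3. The part of uniqueness or of cell makeup in the ratios of Tmsb10 and Actg1 was not tested.

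**Figure D3:**
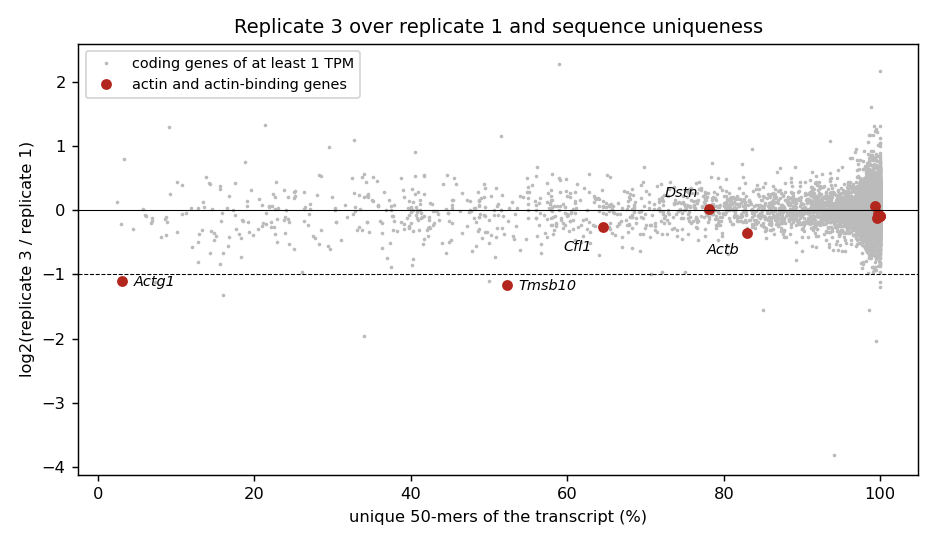
Log2 ratio of replicate 3 to replicate 1 against the share of unique 50-mers, taken every 10 bases, for coding genes of at least 1 TPM (grey) and the 10 genes (red); the dashed line is a ratio of 0.5. Actg1 and Tmsb10 lie below the dashed line, and the other 8 genes lie above it.

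For 6 of the 10 genes the table holds transcripts that touch the last exon and transcripts that do not. Within each of these genes the ratio of replicate 3 to replicate 1 was lower in the transcripts that touch it. In Actb the ratio of replicate 3 to replicate 1 was 0.77 to 0.79 for the 2 transcripts that touch the last exon and 0.89 for the 6 that do not. In Actg1 it was 0.41 to 0.47 for the 5 that touch it and 1.02 to 1.47 for the 4 that do not, the latter on 7 to 43 reads each. Those 4 also lie wholly outside the span of Actg1-203, where the low reads of replicate 3 were seen. In Actg1 the last exon therefore cannot be told apart from the rest of that span. In Tmsb10 it was 0.45 for the 3 that touch it and 0.61 for the 1 that does not. The same order held in Dbn1, Pfn1 and Pfn2, where the transcripts without the last exon were higher in replicate 3 than in replicate 1. In Pfn2 the ratio was 1.09 without the last exon and 0.925 to 0.996 with it. In Pfn1 it was 1.07 to 1.09 without and 0.94 with it. In Dbn1 it was 1.103 to 1.26 without and 1.05 to 1.07 with it. Some transcripts without the last exon in Actb, Actg1, Dbn1 and Pfn1 are annotated as keeping an intron, and those with it are not. Reads of unspliced RNA can count in such transcripts, and their part in these ratios was not tested. For Pfn2 and Tmsb10 the 1 transcript without the last exon is annotated as coding.

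In 6 of these 6 genes, then, every transcript without the last exon had a higher ratio than every transcript with it. The same was true of 29.8% of 6319 genes with transcripts of both kinds and at least 5 reads per transcript and library, and the opposite of 16.3%. Transcripts of a gene share reads, so they are not independent of each other, and this comparison was chosen after its values were seen. Over 561 genes in which a downstream part of at least 300 bases could be separated, its density relative to the upstream part was lower in replicate 3 than in replicate 1 for 66.1%, with a median shift of -0.08 on the log2 scale. A lower 3′ share in replicate 3 was therefore seen over many genes and not in the actin genes alone.

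**Figure D4:**
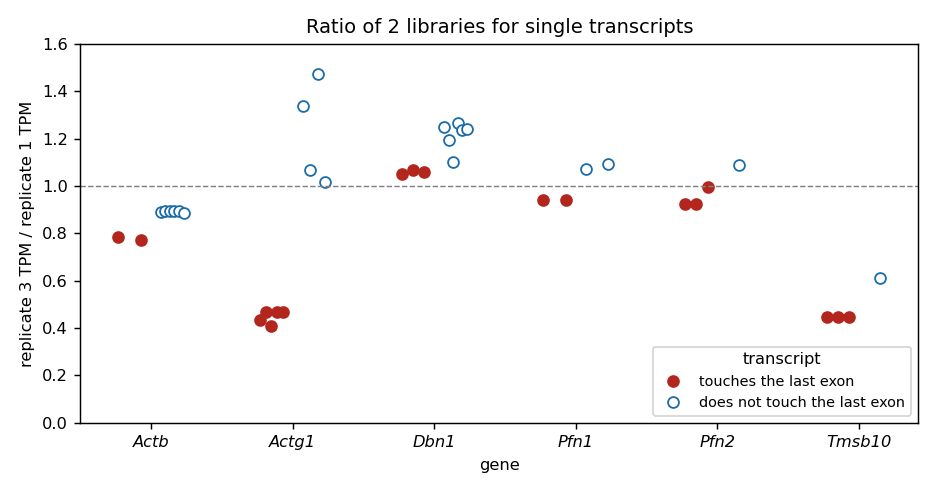
Ratio of replicate 3 TPM to replicate 1 TPM for single transcripts of the 6 genes that have transcripts with (filled) and without (open) the last exon; the dashed line marks equal values. In each gene the open symbols lie above the filled ones, by the most in Actg1, where they span 1.02 to 1.47 against 0.41 to 0.47. Some open symbols of Actb, Actg1, Dbn1 and Pfn1 are transcripts annotated as keeping an intron. The open symbols of Actg1 are transcripts that also lie outside the whole span of Actg1-203.

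The wider actin machinery was described with 13 lists of 122 genes, of which 120 had a value. A mean of at least 1 TPM was reached by 99, or 82.5%, against 61.8% of all coding genes, and the median was 10.98 TPM. Of the 120, 3 stood above 124 TPM, the median of the 10 genes: Arpc3, Marcksl1 and Arpc2.

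Other actins were low. Acta2, smooth muscle actin, stood at 2.10, 3.71 and 3.39 TPM, a level close to that measured for Actg1, and it is 98.0% unique. It is also a marker of smooth muscle and pericytes, like Tagln at 2.66 ± 0.74 TPM. The striated muscle actins Acta1 and Actc1 stood at 0.29 ± 0.08 and 0.014 ± 0.013 TPM, and Actg2, enteric smooth muscle actin, at 0.022 ± 0.026 TPM. Of the other profilins and β-thymosins 4 of 6 had a value, each of at least 1 TPM. Tmsb15b2 was the highest at 30.9 ± 3.53 TPM, followed by Tmsb15l at 9.78 ± 0.91 and Tmsb15b1 at 6.20 ± 0.69 TPM. Tmsb15b2 had 100% unique 50-mers, Tmsb15l 80.5% and Tmsb15b1 84.6%. Pfn4, a profilin best known from testis, stood at 5.76 ± 0.52 TPM.

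Genes that act on the same monomers and on cofilin were mostly present. Of the drebrin-like and monomer recycling list 8 of 9 reached 1 TPM, led by Gmfb, a cofilin-like factor that removes filament branches, at 80.7 ± 4.05 TPM. Cap1, which helps cofilin recycle actin monomers, followed at 69.9 ± 1.26 TPM, and Gmfg, the paralog of Gmfb known from blood cells, was lowest at 0.015 ± 0.026 TPM. Of the cofilin kinases and phosphatases 12 of 13 reached 1 TPM. Pak1, a kinase upstream of the LIM kinases that inactivate cofilin, stood at 40.7 ± 3.27 TPM, and Pdxp (chronophin), a phosphatase that reactivates cofilin, at 34.7 ± 1.36 TPM. Tesk2, another cofilin kinase, was lowest at 0.62 ± 0.05 TPM.

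Nucleators were led by branched-filament genes. Of the 10 Arp2/3 complex genes 9 reached 1 TPM, with a median of 57.7 TPM. Arpc3 stood at 155 ± 8.55 TPM and Arpc2 at 150 ± 13.6 TPM, while Arpc1b, the paralog of Arpc1a best known from blood cells, stood at 0.85 ± 0.07 TPM. Of the nucleation promoting list 12 of 14 reached 1 TPM, led by the WAVE complex subunits Nckap1 at 96.9 ± 12.2 and Brk1 at 87.1 ± 12.2 TPM, with the blood cell gene Was lowest at 0.007 ± 0.012 TPM. Formins and other linear nucleators had a median of 5.04 TPM, with 12 of 16 at 1 TPM or more. Daam1 was highest at 29.4 ± 1.47 TPM, Spire1 followed at 25.2 ± 1.36 TPM, and Fhod1 was lowest at 0.11 ± 0.03 TPM. All 3 Ena/VASP elongation factors reached 1 TPM, and Evl, at 80.5 ± 2.11 TPM, stood above Enah at 11.4 ± 1.17 and Vasp at 3.95 ± 0.20 TPM.

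Proteins that cap, bundle or pull on filaments were mostly measured at 1 TPM or more. Of the capping and severing list 11 of 15 reached 1 TPM, led by the capping protein subunits Capza2 at 117 ± 6.21 and Capzb at 82.9 ± 5.02 TPM, with the gelsolin relative Scin lowest at 0.003 ± 0.004 TPM. Of the cross-linkers and bundlers 10 of 14 did, led by the MARCKS family genes Marcksl1 at 154 ± 3.83 and Marcks at 79.98 ± 9.67 TPM, with muscle filamin Flnc at 0.043 ± 0.005 TPM. All 7 coronins did, from Coro1a at 24.9 ± 3.32 and Coro1b at 21.5 ± 1.62 to Coro6 at 2.06 ± 0.10 TPM. Of the tropomyosins 3 of 4 did, with Tpm3 at 35.8 ± 3.24, Tpm1 at 31.8 ± 1.26 and muscle Tpm2 at 0.096 ± 0.011 TPM. All 7 non-muscle myosin II genes did, led by the light chains Myl12b at 109 ± 1.47 and Myl6 at 95.2 ± 12.5 TPM, with the heavy chain Myh14 lowest at 1.46 ± 0.20 TPM. The limit described for Actg1 also touches Tpm3, Gmfg and Myl6, with 40.0%, 34.9% and 22.6% unique 50-mers. It touches the dividing-cell markers Pcna and Ccnb1 too, with 44.9% and 36.5%. Capza1, the paralog of Capza2, named after its values were seen, is the 1 pathway gene under 20%, with 18.4% unique 50-mers and 1.05 ± 0.12 TPM.

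**Figure D5:**
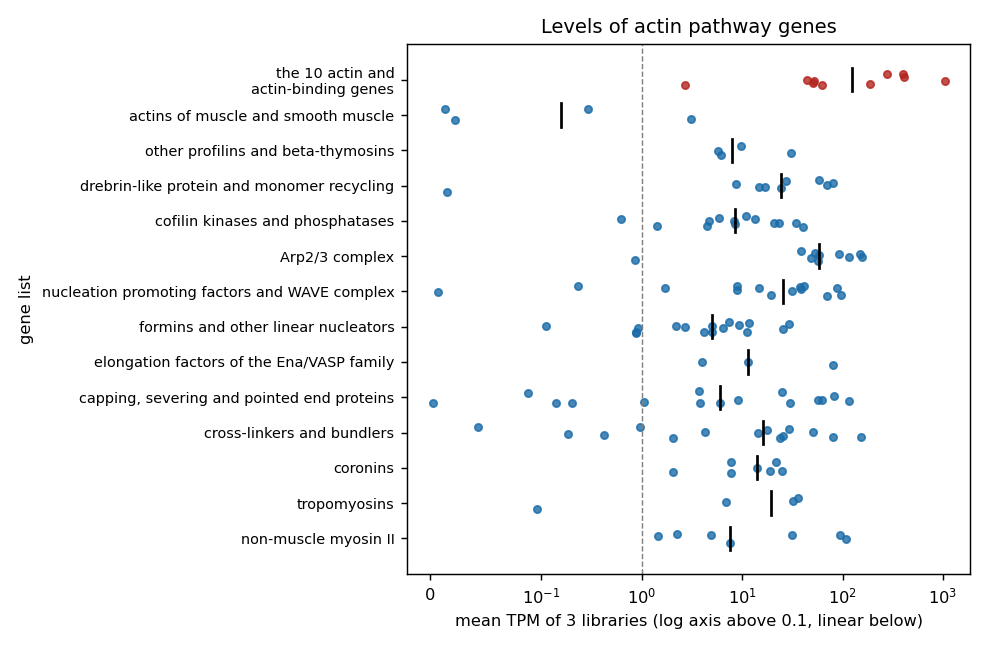
Mean TPM over the 3 libraries of the 10 genes (red) and of 120 further actin pathway genes in 13 lists (blue), on an axis that is logarithmic above 0.1 and linear below; vertical bars are medians and the dashed line is 1 TPM. The red median lies at 124 TPM, to the right of the highest list median, 57.7 TPM for the Arp2/3 complex.

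Promoters were examined for the CArG box, the motif bound by serum response factor, which is known to drive actin genes. RefSeq promoter windows (GRCm38.p6), 300 bases around each start, were matched for 9 of the 10 genes, all but Actb. The motif, searched under its name and read on both strands since it is its own reverse complement in form, was found in the window of Actg1 only, and in 1.63% of 32851 windows of all genes. It is shown with all its bases in capitals and lies at chr11:120348576-120348585 on the minus strand. Its first base is 90 bases before the RefSeq start, which lies inside the GENCODE gene span given for Actg1.
Actg1 CArG box: CCATATATGG
The match describes the letters in this window and says nothing of binding.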

How the data were processed

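Per the labels' protocols, total RNA went through a QIAgen extraction kit and a KAPA library kit. Per the submitters' processing notes, STAR 2.5.3a, featureCounts, Subread 1.4.6 and FastQC 0.11.2 were used on build mm10. Read length, single or paired layout and how multi-mapped reads were counted are not given in the sources used here. The authors deposited TPM for 84660 transcripts. Of these rows 98.1% matched GENCODE M21 (GRCm38) by identifier, and 1643 did not. TPM times exonic length gave whole reads, within 0.01 of a read, for 98.0% of matched rows above 0. A count of 0 allows 3 reads; such limits cover counting error only.

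A gene's value is its coding transcript with the highest mean TPM times length. Differences of log2(TPM + 0.1) inside each library were tested with an exact sign-flip permutation test (two-sided) and Benjamini-Hochberg adjustment. Uniqueness was searched by exact match on both strands of 22 chromosomes, and copies with BLAST 2.17.0. Scripts were tested on simulated data. Named were the 10 genes, the 2 highest and the lowest gene of each pathway list, all other actins, profilins and β-thymosins, the 3 highest copies, and the highest and lowest of each marker list. The genes and lists were chosen with earlier results of these data known. Alternatives were other pseudocounts, transcripts, scalings, minimums, uniqueness corrections and leaving out each replicate. The scripts ran on Python 3.11.15 with pandas 2.3.3, numpy 2.4.6 and, for figures, matplotlib 3.10.9.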

Additional observations from a re-analysis of the deposited data

How the results depend on the processing

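The exact sign-flip test cannot go below 0.25 with 3 libraries, so directions were compared across alternatives. Of the 6 differences between related genes, 5 kept their direction under each alternative, and Tmsb4x minus Actb was -0.17 when TPM was summed over all transcripts, a sum that counts shared reads repeatedly. Cfl1 minus Actb, checked after seeing the data, was -0.26 with the transcript of highest TPM and -2.91 with sums. It was 0.47 when TPM was divided by unique 50-mers. Of the other neighbouring steps only the number with 1 order in all libraries was recomputed, and it ran from 5 to 7 of 9. Leaving out each replicate moved Actg1 minus Actb between -7.36 and -7.01 and Tmsb10 minus Tmsb4x between -4.72 and -4.18. The median of the 10 genes, 124 TPM, was 142 with the transcript of highest TPM, 316 with sums and 578 when TPM was rescaled over nuclear coding genes. The median of the pathway genes, 10.98 TPM, was 12.9, 41.6 and 51.1 under the same alternatives, 18.8 over genes of at least 1 TPM and 9.32 over genes with at least 90% unique 50-mers. The correction by unique 100-mers was chosen after seeing the data. No paired analysis was possible because there is 1 group, so replicate numbers pair no samples; genes were compared inside libraries. Depth limits Actg1, with 149 to 358 reads, more than the other 9 genes, with 1072 reads or more.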

Other observations

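The 12 genes of at least 1 TPM with replicate 3 below 0.5 times replicate 1 hold, beside Tmsb10 and Actg1, 10 others of mixed kind, all picked with their values in view. The aldehyde dehydrogenase gene Aldh1a7 had the lowest ratio, at 2.24, 2.59 and 0.16 TPM in replicates 1, 2 and 3. The ribosomal protein gene Rpl35a, at 35.7, 28.6 and 9.15 TPM, was the only one besides Tmsb10 above 10 TPM, and it has 34.0% unique 50-mers. Lyz2 and Spp1, both abundant in microglia and macrophages, stood at 2.74, 1.74 and 0.93 TPM and at 2.64, 2.56 and 0.90 TPM. The widely made glycolytic gene Pgk1 stood at 2.26, 1.597 and 1.04 TPM and has 7.30% unique 50-mers. Of the 12 genes 3 had under 20% unique 50-mers, Actg1, Pgk1 and Atp5l, against 69 of all 11196 genes of at least 1 TPM.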
